A study of Mus musculus with 25 samples.

Results

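The regions described here are 1-kb tiles of the mouse genome with few CpGs covered by the libraries and no CpG-dense tile nearby. They carried little DNA methylation in fetal haematopoietic stem cells (HSCs). An autosomal tile was taken when it had under 10 distinct CpG positions over the 25 libraries, when no tile with 30 or more positions lay within 5 tiles on either side, and when at least 3 of its CpGs had 5 or more reads in both fetal libraries. Its methylation level, the methylated share of those reads, had to be under 20% in both. This gave 3414 tiles, which are 5.16% of the 66144 isolated CpG-poor tiles that passed the coverage rule and 1.20% of the 283381 tiles in all. The tiles were thus chosen by their fetal levels, so fetal values are given as a description, and tests use libraries other than the fetal ones, of which there are 23. CpGs that no library covered were not counted. The words CpG-poor, CpG-dense and isolated thus describe covered CpGs, and the CpG content of the sequence itself was not analysed. Coordinates are on mm9.

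Methyl groups on the cytosine of CpG pairs are copied after DNA replication, and most CpGs outside dense islands are methylated in mammalian tissue. CpG-poor stretches of low methylation are often regulatory elements away from promoters, such as enhancers, where bound transcription factors keep methylation low, and their methylation differs between cell types more than that of CpG islands. HSCs are the self-renewing source of the blood lineages, and they move from the fetal liver to the bone marrow around birth.

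Methylation was read by reduced representation bisulfite sequencing (RRBS), in which fragments cut by a restriction enzyme are treated with bisulfite and sequenced. All libraries were labelled as HSCs of C57Bl/6 mice. Fetal HSCs came from fetal liver at e14.5 (n = 2), and all others from bone marrow. Young HSCs were from mice of 3.5 months (n = 2) and old HSCs from mice of 25 months (n = 2). The 5-fluorouracil (5-FU) groups, named for a drug that kills dividing cells, have an age label of 3.5 months plus 6 months, with 3 libraries at 0 doses, 3 at 2 doses and 2 at 4 doses. The transplanted groups are labelled as 10 (n = 3), 50 (n = 1) or 500 (n = 1) young HSCs transplanted and 10 (n = 2), 50 (n = 1) or 500 (n = 3) old HSCs transplanted. The labels give no sex, no purification, no recipient and no age at recovery, and nothing in them says that replicates were separate animals, so p-values measure the spread between libraries, which may be technical. A level is a share of reads, so a mixture of methylated and unmethylated cells and partial methylation in every cell cannot be told apart. The identity of the cells as HSCs could not be checked against markers in these data.

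The number of reads per library ran from 22835325 to 105187091, the number of CpGs from 1246435 to 1619487 and the median depth of a CpG from 10 to 54 reads. The methylated share of all reads ran from 29.1% to 50.0%. Over 133 CpG-dense tiles of intermediate level, the mean level was 39.0% and 39.8% in the young libraries and 42.0% to 51.9% in the 13 old and transplanted ones. Young libraries thus read lower than the old and transplanted ones at these 133 tiles. At low CpG-dense tiles the order differed, with medians of 1.28% and 1.10% in young, 1.62% and 1.90% in old and 0.268% to 0.528% in transplanted libraries. The counts of called tiles are given below with this offset kept and removed, and all other values with it kept.

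The tiles were short clusters of covered CpGs. They had a median of 6 positions (quartiles 4 to 7) against 5 in the 62730 isolated tiles that were not low in fetal cells. Their CpGs with 5 or more reads in both fetal libraries spanned a median of 105 bp against 128 bp. The median density of these CpGs was 4.04 against 2.94 per 100 bp. The density of low CpG-poor tiles near a dense tile was 5.20, and that of low CpG-dense tiles was 5.71. The share of isolated tiles that were low rose with their number of positions, from 3.20% of 15852 tiles with 3 positions to 9.87% of 4204 tiles with 9. By chromosome it ran from 4.05% on chromosome 12 to 6.61% on chromosome 19. The tiles were also read more deeply, with a median of 59.2 reads per CpG against 41.2 in fetal replicate 1 and 94.1 against 42.0 in young replicate 1.

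The word isolated fits many of these tiles only in part. A tile of 10 to 29 positions lay within 5 tiles of 1291 of them (37.8%), against 18.8% of isolated tiles that were not low. Such a tile touched 841 (24.6%), against 6.88%. Among isolated tiles with a touching tile of this kind 16.3% of 5158 were low, and among those with none within 5 tiles 4.00% of 53061 were low. Low methylation also reached into the neighbouring tile. Of the covered tiles that touched a member, 73.9% of 737 on one side and 71.9% of 716 on the other were under 20% in fetal cells, against 6.22% of 6898 and 6.08% of 6976 beside isolated tiles that were not low. At 4 kb these shares were 27.5% of 320 and 30.2% of 315, against 11.1% and 11.5%. Few neighbours are covered, and the rule itself bars dense tiles within 5 tiles, so the values at each distance describe the covered sequence only. Of the 3414 tiles, 302 touched another of them, in 145 runs of 2 and 4 longer runs, the longest being 3 tiles at chr5:67619001-67622000. A touching tile at 80% or more in both fetal libraries was found for 145 tiles. No gene annotation on mm9 was used here, so the distance of a tile from genes and promoters was not analysed.

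**Figure D1:**
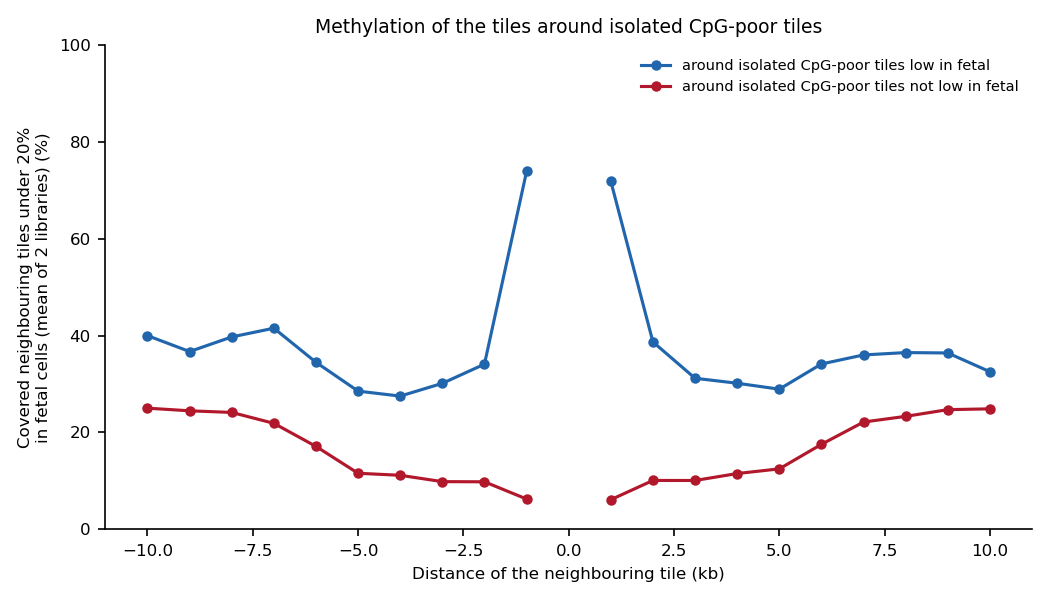
Share of covered neighbouring tiles under 20% methylation in fetal cells (y axis, percent, mean of the 2 fetal libraries) by distance in kb (x axis) for the tiles low in fetal cells and for isolated CpG-poor tiles that were not low. Touching neighbours of the low tiles were under 20% in 73.9% and 71.9% of cases, against 6.22% and 6.08% for the others.

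Fetal levels were mostly far under the threshold. The median was 3.13% in fetal replicate 1 and 2.38% in replicate 2. Both libraries were under 5% in 1849 tiles and at 0 in 383. Just inside the threshold lay chr5:34573001-34574000 with 19.9% and 9.84% in the fetal libraries, and chr13:96516001-96517000 with 19.9% and 10.5%. Just outside lay chr2:92647001-92648000 with 7.95% and 20%, and chr2:164899001-164900000 with 19.3% and 20%. The threshold does not fall in a gap, since 390 tiles had their higher fetal level between 15% and 20% and 422 isolated tiles between 20% and 25%. A limit of 10% would leave 2528 tiles and a limit of 30% would take 4243. A window of 2 tiles to the nearest dense tile would take 3754, and one of 10 tiles 3068.

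Most of these tiles stayed low in all later libraries. The median level was 2.53% and 2.48% in the young libraries, 3.38% and 3.47% in the old ones, and between 0 and 4.15% in all others. Isolated tiles that were not low in fetal cells had medians of 76.7% to 92%. On CpGs read in all 25 libraries, 1677 of the tiles could be followed, and 1262 of them (75.3%) were under 20% everywhere. The same held for 881 of 1041 low CpG-poor tiles near a dense tile (84.6%), for 10648 of 11025 low CpG-dense tiles (96.6%) and for 16 of 17513 isolated tiles that were not low (0.0914%). A level of 50% or more in any library was seen in 56 (3.34%).

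The lowest tile of those read in every library was chr8:122128001-122129000, at 0 in 24 libraries and at 0.488% in old replicate 1, over 19 to 220 reads. The next lowest were chr7:26504001-26505000, whose highest level was 0.612%, chr6:100621001-100622000 at 0.799%, chr2:80478001-80479000 at 0.808% and chr13:52626001-52627000 at 0.837%. At the other end 19 of the 1677 tiles reached 20% in all 23 later libraries, and 104 did so in exactly 1.

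The minority that read 20% or more was smallest in young HSCs. It was 4.55% and 4.81% of the tiles read in the young libraries. It was 11.5% and 9.64% in the old libraries and 9.65%, 10.9% and 9.89% with 0 doses of 5-FU. After 2 doses it was 9.56%, 10.8% and 11.9%, and after 4 doses 9.84% and 11.6%. Young libraries thus lay under all 8 libraries of the 5-FU groups, whose mice were 6 months older by their labels. They also read lower over 115 CpG-dense tiles of intermediate level, at 40.6% and 41.4%, against 44.6% to 47.7% in the 5-FU libraries. Depth differed as well, with a median of 387 and 457 reads per tile in young and 60.5 to 174.5 in 5-FU libraries. The part of this offset and of depth was not tested.

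After transplantation the share was 9.23%, 9.41% and 7.61% from 10 young cells, 9.27% from 50 and 6.13% from 500. From old cells it was 8.42% and 11.9% with 10, 9.50% with 50, and 9.71%, 11.1% and 6.71% with 500. The lowest of these, the library of 500 young cells and replicate 3 of 500 old cells, also had the lowest methylated share of all reads, 29.1% and 31.9%, and the part this plays was not tested. No transplanted library lay at or under the young ones. Depth differed between groups too, with a median over the tiles of 94.1 and 112 reads per CpG in the young libraries and 54.8 in old replicate 1, and its part was not tested. Among the 1677 tiles read on the same CpGs throughout, the share was 3.52% and 3.82% in young, 9.30% and 7.45% in old, and 7.93% and 10.8% with 4 doses of 5-FU. In low CpG-dense tiles it was 0.469% and 0.451% in young and 0.773% to 1.66% in the other later libraries. In low CpG-poor tiles near a dense tile it was 3.22% and 3.44% in young and 3.72% to 7.68% in the others.

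**Figure D2:**
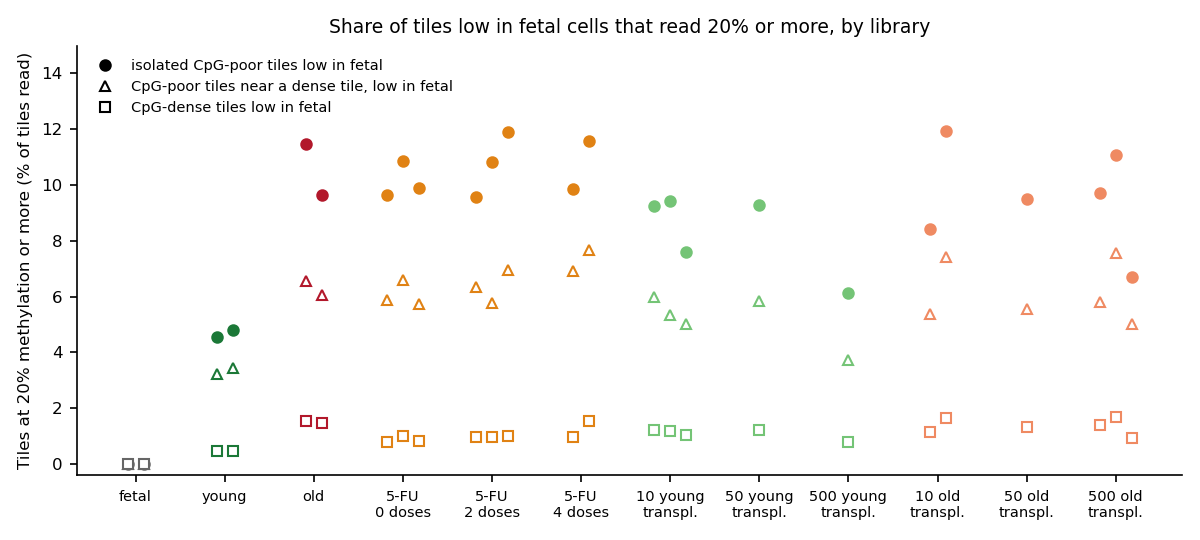
Percent of the tiles low in fetal cells that read 20% methylation or more (y axis) in each library, by group (x axis), as filled circles, beside 2 other classes of low tile, CpG-poor near a dense tile and CpG-dense, as open marks. The young libraries, at 4.55% and 4.81%, lie under every old, 5-FU and transplanted library.

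A level of 20% or more in adult HSCs was most frequent among tiles close to the threshold in fetal cells. With a higher fetal level under 5%, 0 tiles read 20% or more in both young libraries, and with one of 5% to 10% 1.40% did. With 10% to 15% it was 6.33%, and with 15% to 20% it was 18.2% of 357 tiles. In old HSCs the same bands gave 0 under 1%, 0.790% from 1% to 5%, 5.45%, 18.4% and 34.9%. Both fetal libraries chose the tiles, so these shares are a description.

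The tiles with the highest level in young HSCs are given without a test. The tile chr9:61725001-61726000 read 19.9% and 18.9% in fetal libraries and 69.5% and 77.9% in young ones, and 61.9% to 85.7% in all later libraries that read it. The tile chr10:127057001-127058000 read 18.5% and 15.6%, then 69.9% and 68.5%. The tile chr1:137595001-137596000 read 19.4% and 12.2%, then 65.3% and 71.4%. All 3 were near the threshold in fetal cells. Further inside it, chr10:19081001-19082000 read 7.48% and 15.3% in fetal libraries, 55.3% and 52.3% in young ones and 58.7% to 78.7% in every other library that read it. In this tile and the 3 before it, each later library that read the tile lay above both fetal ones. The choice of tiles low in fetal and high in young cells favours this. The other 6 tiles with the highest young means were chr6:3291001-3292000 (56.3%), chr9:110792001-110793000 (49.3%), chr16:90349001-90350000 (49.2%), chr3:144220001-144221000 (47.9%), chr11:101758001-101759000 (46.0%) and chr16:31508001-31509000 (45.6%). Of these, chr9:110792001-110793000 was read in 14 of the 25 libraries, over at most 133 reads. Its young libraries read 40.3% and 58.2%.

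Comparisons among the later groups were tested per tile on methylated and total reads with a quasi-binomial model, with the dispersion moderated as in limma and p-values adjusted by Benjamini-Hochberg over all tiles. A tile was called at an adjusted p under 0.05 and a difference of at least 10 percentage points. Young, old and transplanted libraries shared a fit of 90382 tiles, 3055 of them low in fetal cells. No call rests on a fetal library.

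Old HSCs differed from young ones at few of the 3055 tiles, mostly upward. In old HSCs 18 were higher (0.589%) and 1 was lower (0.0327%), against 0.663% and 0.102% of all tiles, so the share of gains was near that of the background. Of all tiles low enough to rise by 10 points 0.981% were higher. Each of the 3055 tiles was low enough to rise by that much. The median difference was 0.81 points over these tiles and 1.26 points over all tiles. The 18 gains had a median of 21.9 points and a highest of 46.0 points. Leaving out old replicate 1 or young replicate 1 left 2 calls, and leaving out old replicate 2 or young replicate 2 left 5. With the offset of each library removed, 3 were higher and 2 lower, against 0.168% and 0.314% of all tiles, and limma on log odds called 0 higher and 1 lower, against 0.171% and 0.0454%. A fit of only the young and old libraries called more, with 62 of 3227 tiles higher and 1 lower, against 2.09% and 0.15% of all tiles.

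The largest gain lay at chr6:113640001-113641000. It read 17.4% and 27.9% in young libraries and 67.0% and 70.4% in old ones, over 201 to 233 reads. The groups did not overlap, and old HSCs were 46.0 points higher (adjusted p = 0.00115, quasi-binomial F test with limma moderation). That call was lost with limma on log odds, with the difference between 37.5 and 51.3 points over all settings. The second was chr11:79121001-79122000, at 31.4% and 35.8% in young and 79.2% and 79.5% in old libraries over 44 to 53 reads, a difference of 45.8 points (adjusted p = 0.035, same test with limma moderation). This tile also read 60.4% to 86.4% in the 6 libraries of the 5-FU groups that read it and at most 57.7% after transplantation. Its call was lost without any of the 4 young and old libraries, with the offset removed and with limma on log odds, while the difference stayed between 36.4 and 48.0 points.

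In the libraries that did not choose them, the 18 gained tiles had medians of 12.1% to 26.9% with 0 doses of 5-FU, 18.2% to 20.1% with 2 doses and 6.30% to 15.1% after transplantation of young or old cells. The medians of the fetal libraries were 12.1% and 10.8%. With 4 doses the medians were 25.3% and 33.5%, over 13 and 9 tiles read.

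After transplantation of 10 young cells, more of the tiles were higher than young HSCs than lower, while the reverse held over all tiles. Of 3055 tiles 104 were higher (3.40%) and 14 lower (0.458%), against 1.12% and 17.5% of all tiles. The median difference was -0.01 points, against -4.43 points over all tiles. The gains had a median of 16.2 points (10.1 to 46.8). In other classes the share of gains was 0.645% of isolated tiles that were not low, 1.85% of low CpG-poor tiles near a dense tile and 0.827% of low CpG-dense tiles. Counting only tiles low enough to rise by 10 points, it was 1.21% of isolated tiles that were not low and 1.66% of all tiles. With the offset of each library removed, 63 were higher and 67 lower, against 0.517% and 35.0% of all tiles, so the balance of gains and losses changed when the offset was removed. Gains were fewer near tiles with more covered CpGs. They took 26 of 1163 tiles (2.24%) that had a tile of 10 to 29 positions within 5 tiles. Of those that had none they took 78 of 1892 (4.12%), a difference that was not tested. The count of 118 fell to 55 without young replicate 1 and to 15 without young replicate 2. A fit of only these groups called 44 of 3157 tiles higher and 6 lower, against 0.348% and 4.16% of all tiles.

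A tile that starts low can hardly fall by 10 points. Only 484 of the 3055 tiles were at 10% or more in young HSCs, and 2.89% of these were lower after transplantation of 10 young cells, against 24.2% of all tiles at 10% or more. From old HSCs 697 tiles could fall by that much. Of these 8.75% did so after 10 old cells and 6.46% after 500, against 31.8% and 11.5% of all tiles able to fall. Other low tiles able to fall also lost less often than all tiles. After 10 young, 10 old and 500 old cells, 2.79%, 7.17% and 6.09% of low CpG-poor tiles near a dense tile were lower. For low CpG-dense tiles the shares were 1.95%, 5.36% and 5.16%. The tiles able to fall were not matched for starting level. Of the 65203 tiles at 10% or more in young HSCs, 40839 were isolated tiles that were not low in fetal cells. The median of isolated tiles that were not low was 87.5% in young replicate 1. A tile just above 10% must lose nearly all its methylation to fall by 10 points. The part of the starting level in these shares was not tested. Gains took 0.984% and 0.663% of all tiles low enough to rise from old HSCs after 10 and 500 old cells.

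Of the 5 largest gains after 10 young cells, 4 were called in every setting that tested them. At chr5:118886001-118887000 the level was 10.1% and 10.3% in fetal, 34.2% and 28.7% in young, and 72.0%, 72.9% and 65.4% after 10 young cells, over 317 to 907 reads. All 3 transplanted libraries lay above both young ones, by 38.7 points on average (adjusted p = 0.000196, limma-moderated quasi-binomial F test). The level was 79.8% after 50 and 62.8% after 500 young cells, and 67.1% to 78.3% in the 6 libraries from old cells, against 50.6% and 38.7% in old HSCs.

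The tile chr14:33962001-33963000 read 15% and 8.57% in fetal, 4.53% and 2.90% in young, and 47.1%, 43.3% and 61.2% after 10 young cells, over 70 to 345 reads. It had the largest gain of this comparison, 46.8 points (adjusted p = 0.00123, limma-moderated quasi-binomial F test). It read 31.1% after 50 and 4.71% after 500 young cells, 30.9% to 42.1% after 10 and 50 old cells, and 21.7%, 46.3% and 6.09% after 500 old cells. The library of 500 young cells and replicate 3 of 500 old cells thus lay near the young level. By single CpG the mean was 1.85% to 6.59% in young HSCs and 6.11% to 14.1% in old HSCs.

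The same held in part at chr10:69615001-69616000. It read 20.9% and 23.8% in young, 72.1%, 63.0% and 63.7% after 10 young cells, and 28.3% and 32.0% in old against 59.4% and 74.6% after 10 old cells. The gains were 43.9 and 36.8 points (adjusted p = 0.000443 and 0.00343, limma-moderated quasi-binomial F test). The library of 500 young cells read 29.5% and replicate 3 of 500 old cells 29%. At chr5:77551001-77552000 the young libraries read 32.7% and 38.2% and those from 10 young cells 73.8%, 69.0% and 75.6%, a gain of 37.3 points (adjusted p = 0.00124, limma-moderated quasi-binomial F test).

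The fifth gain, at chr1:40382001-40383000, was less even. It read 25.5% and 45.3% in young and 90%, 56.8% and 66.7% after 10 young cells, 35.8 points higher (adjusted p = 0.0268, limma-moderated quasi-binomial F test). It read 13.3% after 500 young cells, under both young libraries, and 52.0% and 54.8% after 10 old cells, under both old libraries at 94.8% and 71.1%. The call was lost without either young library (25.8 and 45.7 points), without replicate 1 of 10 young cells (26.4 points), with only these groups in the fit and with limma on log odds.

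Transplantation of 10 old cells gave gains and losses in like number, against old HSCs. Of 3055 tiles 78 were higher (2.55%) and 61 lower (2.00%), against 0.581% and 23.3% of all tiles, and the median difference was -0.61 against -6.41 points. With 500 old cells 34 were higher (1.11%) and 45 lower (1.47%), against 0.392% and 8.45%, with median differences of -0.62 and -3.82 points. Both comparisons use the same old libraries. The count after 10 old cells was 21 without old replicate 1, 59 without old replicate 2, 45 without replicate 1 of 10 old cells and 75 without replicate 2. The count after 500 old cells was 3 without old replicate 1, 22 without old replicate 2 and 30 without replicate 1 of 500 old cells. Without replicate 3 of 500 old cells it was 96, of which 68.8% were higher, against 43.0% of the 79. With the offset removed 71 were higher and 62 lower after 10 old cells, against 0.564% and 23.9% of all tiles, and 31 and 41 after 500, against 0.407% and 7.72%.

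**Figure D3:**
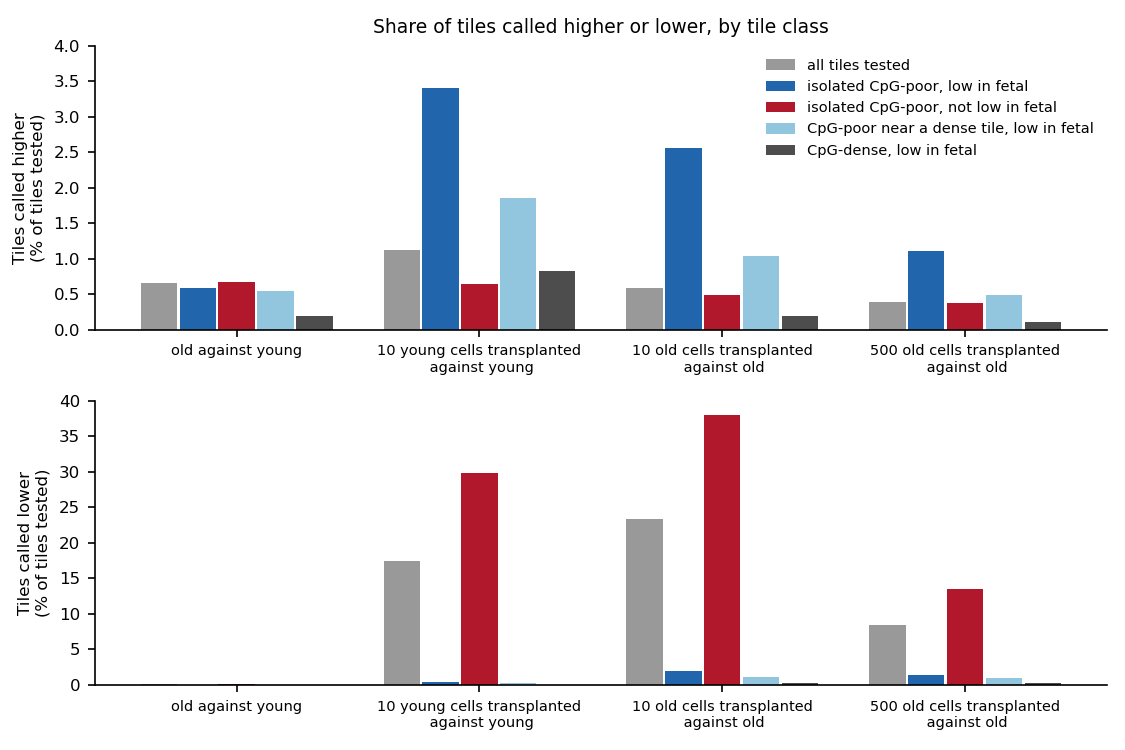
Percent of tested tiles called higher (upper panel) and lower (lower panel) in 4 comparisons (x axis), by class of tile (bars). The tiles low in fetal cells have the tallest bar of gains in the 3 transplanted comparisons, with 3.40%, 2.55% and 1.11%, and short bars of losses beside those of all tiles, at 17.5%, 23.3% and 8.45%. The other classes of low tile also have short bars of losses.

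The largest gain after 10 old cells lay at chr13:63373001-63374000. It read 2.39% and 4.58% in fetal, 17.9% and 17.2% in young, 19.8% and 12.1% in old, and 51.3% and 57.2% after 10 old cells, over 149 to 495 reads. The difference of 38.3 points was called (adjusted p = 0.00136, limma-moderated quasi-binomial F test). After 500 old cells it read 56.4%, 50.9% and 29.8%, 29.8 points above old on average, a call that was lost without either old library. After 10 young cells, whose comparison shares no library with it, it read 47.3%, 46.1% and 47.8%, all above both young libraries. At chr4:149105001-149106000 old libraries read 5.53% and 5.00%, and 10 old cells gave 48.5% and 26.7%, over 45 to 199 reads. This gain was 32.3 points (adjusted p = 0.00169, limma-moderated quasi-binomial F test), with a wide gap between its replicates, and it was lost without replicate 1 of 10 old cells, at 21.4 points. The largest gain after 500 old cells was chr4:43908001-43909000, with 21.6% and 25.2% in old libraries and 60.4%, 54.7% and 45.5% after transplantation. Its difference of 30.1 points (adjusted p = 0.00521, limma-moderated quasi-binomial F test) was lost without old replicate 1, at 28.3 points.

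Other tiles lost the level that adult HSCs had reached. At chr15:80972001-80973000 fetal libraries read 9.56% and 12.8%, young 43.0% and 44.6%, and old 54.9% and 45.3%. After 10 young cells it read 15.7%, 18.1% and 18.5%, after 10 old cells 17.5% and 9.91%, and after 500 old cells 23.7%, 20.5% and 18%. Every transplanted library, at 9.91% to 27.4%, lay under all 4 young and old ones. The losses were 26.4, 36.4 and 29.4 points in that order (adjusted p = 0.00255, 0.00137 and 0.00356, limma-moderated quasi-binomial F test). The first was lost without young replicate 2 and the third without old replicate 1, with losses of 25.6 and 24.6 points. The libraries of the 5-FU groups read 21.5% to 47.2%.

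The change after 10 young cells from young HSCs and that after 10 old cells from old HSCs differed in the test at 2 of the 3055 tiles, against 0.0520% of all 90382 tiles (47 tiles). At both, young and old HSCs started far apart, and the lower of them had too little methylation to fall as far as the other. At chr16:90349001-90350000 the lower group did not fall. Its mean rose from 5.67% in old HSCs to 13.5% after 10 old cells. From young HSCs the mean there fell from 49.2% to 21.9% after 10 young cells. A donor-dependent change and the gap at the start cannot be told apart at either tile. At chr6:113640001-113641000, the tile with the largest gain in old HSCs, the level was 5.47% ± 2.94 (SD, n = 3) after 10 young cells and 11.4% ± 4.04 (n = 2) after 10 old cells. It thus fell by 17.2 points from young and by 57.3 points from old HSCs, the first a call that was lost without young replicate 2 (a fall by 11.9 points). The effects differed by 40.3 ± 6.35 points (SE, adjusted p = 0.0201, Wald test on levels with limma-moderated dispersion). After 500 old cells it read 6.86%, 18.3% and 16.2%, under both old libraries. With 0 doses of 5-FU it read 52.9%, 50.0% and 54.6%, above both young libraries, and with 2 doses 25.4%, 33.1% and 38.7%. Its 5 tested CpGs moved together. They lay between 54.3% and 73.5% in old HSCs, the lowest at position 113640632, and between 6.78% and 23.3% after 10 old cells.

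At chr16:90349001-90350000 the difference was -35.3 ± 6.25 points (SE, adjusted p = 0.0468, Wald test on levels with limma-moderated dispersion). The level was 50.8% and 47.7% in young and 3.88% and 7.46% in old libraries, 21.5%, 18.6% and 25.5% after 10 young cells, and 14.8% and 12.2% after 10 old cells. After 50 and 500 young cells the level was 19.1% and 38.2%. It was 14.2% after 50 old cells and 15.7%, 7.16% and 29.9% after 500. Young HSCs stood apart from fetal ones, at 10.3% and 8.84%, and from all 5-FU libraries, at 2.94% to 13.3%. Depth stood apart too, with 1430 and 1795 reads in the young libraries and 402 to 464 in the old ones. The CpGs at 90349765 and 90349775 read 49.7% and 47.4% in young HSCs and 0 to 3.45% in every other group. The part of depth in this result was not tested. The count of 2 tiles fell to 0 without old replicate 1, old replicate 2, young replicate 1 or replicate 1 of 10 old cells, and to 0 with at least 10 reads per CpG. It was 1 without young replicate 2, without replicate 1 or 2 of 10 young cells, and without replicate 2 of 10 old cells.

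**Figure D4:**
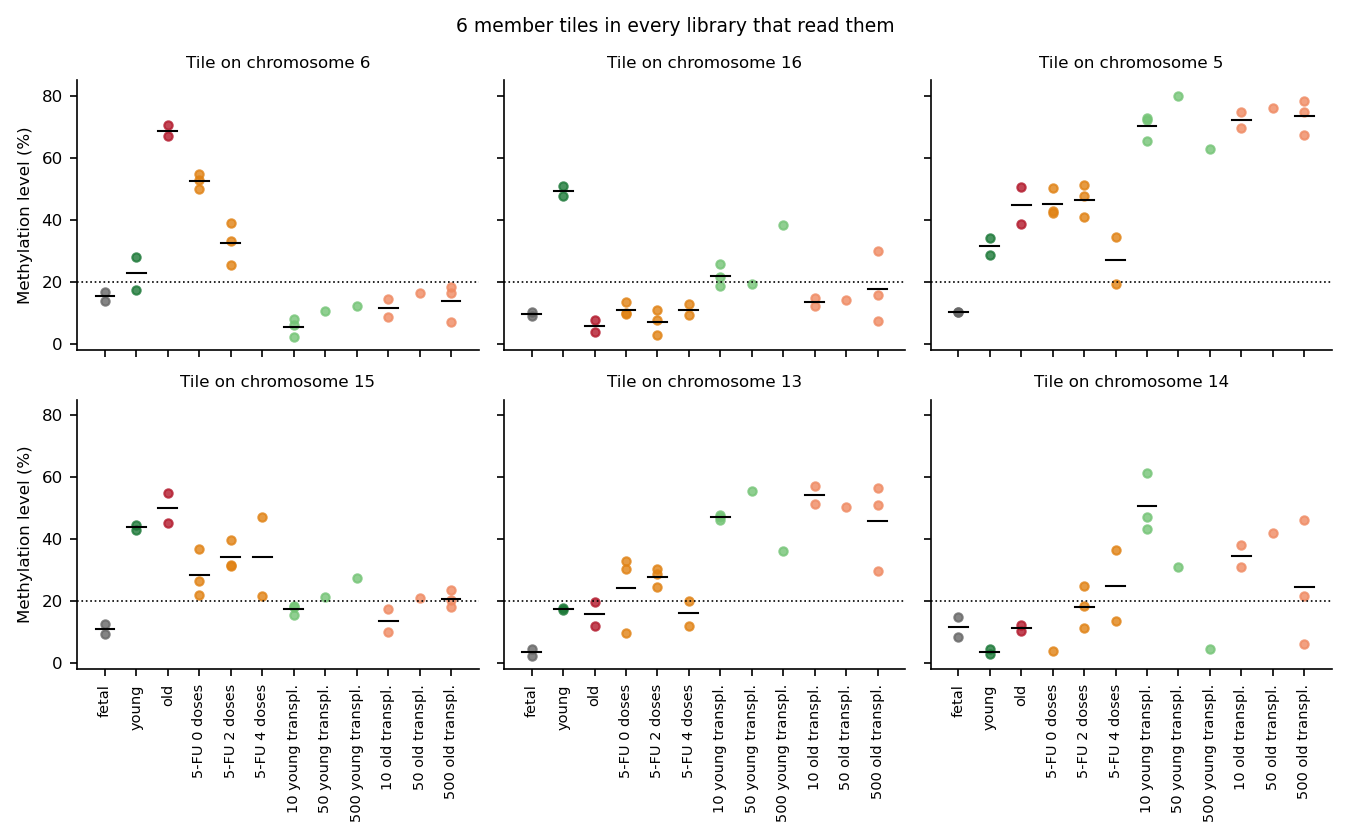
Methylation level in percent (y axis) of 6 tiles in each library that read them, by group (x axis), with a black line at the mean of a group and a dotted line at 20%. The 6 are the tiles with the smallest adjusted p of each comparison and direction, then those with the largest difference. The tile on chromosome 5 reads 28.7% to 34.2% in young and 62.8% to 79.8% in transplanted libraries, and that on chromosome 6 reads 67.0% and 70.4% in old libraries.

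Tiles that gained after 10 young cells also stood higher after transplantation of other cells. The comparison of 10 old cells with old HSCs shares no library with that of 10 young cells. Both come from the same fit and use the same spread for each tile, so the lists are not independent. Of the 104 tiles that gained after 10 young cells, 42 also gained after 10 old cells, which is 40.4% of the first list and 53.8% of the 78. None of the 104 was lower after 10 old cells. Over all tiles the 2 lists of gains shared 232 tiles, 22.9% of 1014 and 44.2% of 525. With 500 old cells the 104 shared 25 tiles, 24% of the 104 and 73.5% of the 34, against 155 shared over all tiles, 15.3% of 1014 and 43.8% of 354. Of the 14 losses after 10 young cells, 9 were losses after 10 old cells, 64.3% of the 14 and 14.8% of the 61. Over all tiles 9712 losses were shared, 61.4% of 15807 and 46.1% of 21081.

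In libraries outside the comparison that chose them, the 104 tiles had medians of 25.1% after 50 young cells and 16.2% after 500. After 50 old cells the median was 23.4%, after 500 old cells 22.3%, 25.3% and 16%, and in the 5-FU groups 11.3% to 18%. In old HSCs it was 12.6% and 11.6%. The young libraries, which are part of the comparison that chose the tiles, had medians of 8.63% and 9.26%. The old and 5-FU libraries thus also lay above the young ones at these tiles. The 78 tiles that gained after 10 old cells had medians of 22.6%, 22.9% and 21.6% after 10 young cells, and 6.84% and 7.67% in young HSCs. The 61 tiles that lost after 10 old cells had medians of 27.7% and 24% in old HSCs, which chose them, 11.4% and 11.7% in young HSCs and 7.78%, 7.89% and 6.50% after 10 young cells.

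**Figure D5:**
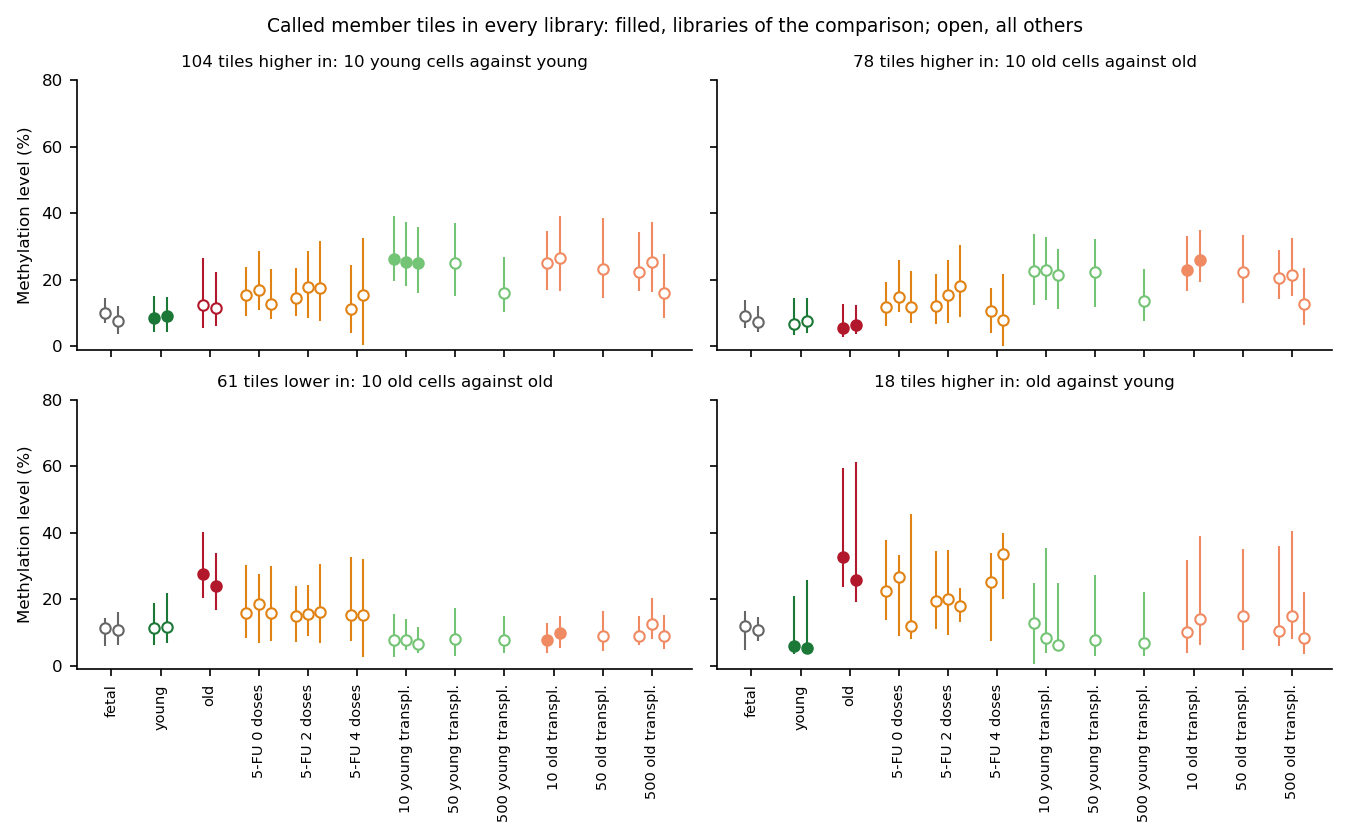
Methylation level in percent (y axis) of called sets of tiles in every library, by group (x axis), as medians with quartile lines, with filled marks for the libraries of the comparison that chose a set and open marks for all others. The 104 tiles gained after 10 young cells have medians of 22.3% to 26.7% in the libraries from 10, 50 and 500 old cells other than replicate 3 of 500 old cells, at 16%.

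The 5-FU groups shared a fit with young HSCs of 57204 tiles, 1687 of them low in fetal cells. Of these 0 passed in either direction with 0 doses against young, with 2 against 0 doses or with 4 against 0 doses. Over all tiles the shares were 0.0507% higher and 0.00175% lower, 0 and 0.00524%, and 0 and 0.00175%. At an unadjusted p under 0.05 the quasi-binomial F test with limma moderation gave 69, 109 and 154 tiles, which are 4.09%, 6.46% and 9.13%, against 5.53%, 4.51% and 7.96% of all tiles. Limma on log odds called 0 with 0 doses, against 0.154% higher and 0.0175% lower of all tiles. With 2 doses it called 9 higher and 0 lower, against 0.194% and 0.119%, and with 4 doses 12 higher and 13 lower, against 0.893% and 0.213%. A fit of only young and 0 doses called 1 of 2497 tiles higher and 1 lower, against 0.361% and 0.0487%. With the offset removed the counts stayed at 0, against 0.0035% higher and 0.00175% lower, 0 and 0.00699%, and 0 and 0.00175% of all tiles. The median differences were 0.28, -0.53 and -0.81 points, against 0.00, -0.51 and -0.01 points over all tiles. A difference in these groups was thus not detectable at any of the 1687 tiles by this test, with this number and depth of libraries.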

How the data were processed

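RRBS libraries of HSCs were deposited by the authors as lists of CpGs, each with a score and its methylated over total reads. This deposited score equalled the methylated share of reads scaled up and rounded down, and it was not tested. Methylated and total reads, as deposited, were summed over CpGs in tiles of 1000 bp. The submitters' processing notes name mm9 as the build. The aligner, the caller and the treatment of duplicates were not given in the sources used here. Reads without molecular identifiers are not independent molecules, so counting errors are lower limits.

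The tiles and lists were chosen with earlier results of these data known. A fit used those CpGs that all its libraries read at least 5 times, and tiles with at least 3 of them on the 19 autosomes. Young, old and transplanted libraries (15) formed a fit, and young and 5-FU libraries (10) another. Methylated reads were fitted with a quasi-binomial model with a mean per group and Williams' weights. Dispersion was moderated with limma with a trend on depth and held at 1 or more. Its prior came from tiles at 10% to 90%, a choice made after seeing the data, because tiles without spread distorted it. P-values came from an F test, adjusted by Benjamini-Hochberg over all tiles. The difference between the changes of young and old cells had a Wald test on levels in percentage points, with the same dispersion and adjustment. The model was tested on simulated reads.

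Named tiles were the 5 largest gains and losses of a comparison among called tiles without overlap of the groups, of which some are described, the 10 highest in young, the 5 lowest and 2 on each side of the threshold. The planned lists of genes were not used, since no annotation or genome on mm9 was used here, and no sequence is shown for the same reason. The software was limma 3.58.1 in R 4.3.3 and, in Python 3.11.15, pandas 2.3.3, scipy 1.17.1, numpy 2.4.6 and matplotlib 3.10.9.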

Additional observations from a re-analysis of the deposited data

Results flagged for a closer look

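The effect of 10 young cells minus that of 10 old cells was 40.3 points at chr6:113640001-113641000 and -35.3 points at chr16:90349001-90350000. Both differences were tested themselves, by a Wald test of the contrast of group levels in percentage points. Young and old HSCs started at different levels in both tiles, and the part of that gap was not tested.

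The groups of 50 and 500 young cells, with 1 library each, entered no comparison. In the library of 50 young cells 9.27% of the tiles low in fetal cells read 20% or more, and in that of 500 young cells 6.13%, against at most 4.81% in the young libraries. These differences have no replicate check, and they were not tested.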

How the results depend on the processing

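At a difference of at least 20 points the counts of called tiles were 12 for old against young, 32 for 10 young cells, 46 for 10 old cells and 26 for 500 old cells, from 19, 118, 139 and 79. With the 2528 of 3414 tiles under 10% in both fetal libraries they were 7, 47, 58 and 31. With only the groups compared in the fit they were 63 for old against young, 50 for 10 young cells and 2 for 0 doses of 5-FU. With the offset removed old against young had 5, and limma on log odds gave 1 there, 9 for 2 doses and 25 for 4 doses of 5-FU. Leaving out 1 library gave 2 to 5 for old against young, 15 to 130 for 10 young cells, 21 to 75 for 10 old cells and 3 to 96 for 500 old cells. It gave 0 to 1 for 4 doses and 0 for the other 5-FU comparisons. The 2 tiles whose changes differed between young and old cells became 0 with at least 10 reads per CpG, 1 without CpGs over 500 reads, 1 with a dispersion prior from all tiles and 0 to 2 without 1 library. For them the offset, block and limma were not run. The alternatives for them, the prior from all tiles and the limit on tiles of 10 to 29 positions were chosen after seeing the data. The offset moved the median of all tiles from 1.26 to -0.68 points for old against young and from -4.43 to -7.40 for 10 young cells. Same-numbered libraries did not deviate together (correlations of -0.0789 to 0.0503), and with the replicate number as a block the counts were 36, 125, 155 and 84, and 0 in the 5-FU groups. For the 20-point limit, the block and the fits without 1 library, no share of all tiles is given here. Their counts therefore do not tell a change at these tiles from a change over all tiles. For the fetal limit of 10% the number of tiles tested is not given here, so its counts do not show whether the called share changed. Of 38 results for named tiles, 11 were called in every setting and 25 in every setting that left out no library, and 0 changed sign. The cause of these changes was not tested.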
